A study of Mus musculus with 12 samples.

Results

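Total RNA of C57BL/6 mouse calvariae (the bony roof of the skull) was sequenced at embryonic day 17.5. The comparison described here set Runx2+/- embryos of MS-275-treated dams against wild-type (WT) embryos of MS-275-treated dams, in 3 libraries each. Its members were all libraries that the labels place in these groups, 6 of the 12 in the series. The other 6 libraries, from Runx2+/- and WT embryos of vehicle-treated dams, entered the estimate of the spread and the test of the interaction. MS-275 (entinostat) inhibits class I histone deacetylases. It was injected intraperitoneally into pregnant dams at 10 mg/kg on days 14.5 and 16.5 post coitum, the dams coming from matings at 8 weeks of age. The controls of the comparison received the drug too, so both groups share it. The labels do not say which part of Runx2 the mutant allele lacks, nor whether replicates came from separate embryos or litters, so a p-value measures only the spread between these libraries, which may be technical.

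Runx2 is the transcription factor that commits mesenchymal cells to the osteoblast lineage, and it binds DNA together with its partner CBF-beta. Osteoblasts lay down and mineralize the collagen matrix of the calvaria. They also make RANKL, the ligand that drives myeloid precursors to fuse into osteoclasts, the cells that resorb bone. Class I histone deacetylases remove acetyl groups from histones and other proteins, and the comparison asks how the calvarial transcriptome differs between Runx2 genotypes while they are inhibited.

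A pair of promoters shows the DNA elements at issue, because Bglap (osteocalcin, a bone matrix protein) is a textbook Runx2 target and Mmp13 (a collagenase of osteoblasts and hypertrophic chondrocytes) is a textbook target of Runx2 and AP-1. Both stretches are the 250 bases before the RefSeq start (GRCm38.p6), written 5′ to 3′ along the gene's strand. Bglap lies at chr3:88384467-88384716 on the minus strand and Mmp13 at chr9:7272264-7272513 on the plus strand. Capitals mark matches on either strand to the RUNX core TGTGGT or to the AP-1 element TGANTCA.
Bglap: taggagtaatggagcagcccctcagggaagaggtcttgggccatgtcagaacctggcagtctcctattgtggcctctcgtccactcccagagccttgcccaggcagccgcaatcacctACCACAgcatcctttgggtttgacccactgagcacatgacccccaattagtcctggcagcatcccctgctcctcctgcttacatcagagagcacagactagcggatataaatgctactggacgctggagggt
Mmp13: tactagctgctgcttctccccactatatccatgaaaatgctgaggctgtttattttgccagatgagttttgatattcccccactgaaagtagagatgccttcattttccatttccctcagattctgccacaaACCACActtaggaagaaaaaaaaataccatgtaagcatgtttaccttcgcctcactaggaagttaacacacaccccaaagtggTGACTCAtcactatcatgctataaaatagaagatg
Bglap has 1 RUNX match, at −132 from the start, and no AP-1 match. Mmp13 has a RUNX match at −118 and an AP-1 match at −35. The RUNX core occurs in 3832 of the 27025 RefSeq promoter windows (14.2%) and the AP-1 element in 1856 (6.87%). Among genes of the lists used below that had a window, the RUNX core occurred in 4 of 18 bone matrix genes, 2 of 11 osteoclast genes and 1 of 11 osteoblast transcription factor and signal genes. The AP-1 element occurred in 0 of each of these lists. These matches describe the sequence and show no binding.

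One Runx2+/- MS-275 library, replicate 3, stood apart from the other MS-275 libraries. On the first principal component of log2 CPM (read counts scaled to a common library size), which held 72.5% of the variance, it had a score of −106. The other Runx2+/- MS-275 libraries scored 114 and 83.9, WT MS-275 libraries 105.2 to 140 and vehicle libraries −122 to 5.51. Summed CPM of 28 skin and epidermal genes was 2855 in Runx2+/- MS-275 replicate 3, 90.2 and 122 in replicates 1 and 2, and 68.3 to 109 in WT MS-275, beside 1981 to 5773 in vehicle libraries. Summed CPM of 28 bone matrix genes was 8657 in Runx2+/- MS-275 replicate 3, 109010 and 72257 in replicates 1 and 2, and 109170 to 125680 in WT MS-275, beside 14097 to 33001 in vehicle libraries. The library labelled replicate 3 thus lay within the vehicle range for skin genes and below it for bone matrix genes. Each result is therefore given with and without it. Leaving it out is a choice made from its values, and results without it are conditional on that choice.

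**Figure D1:**
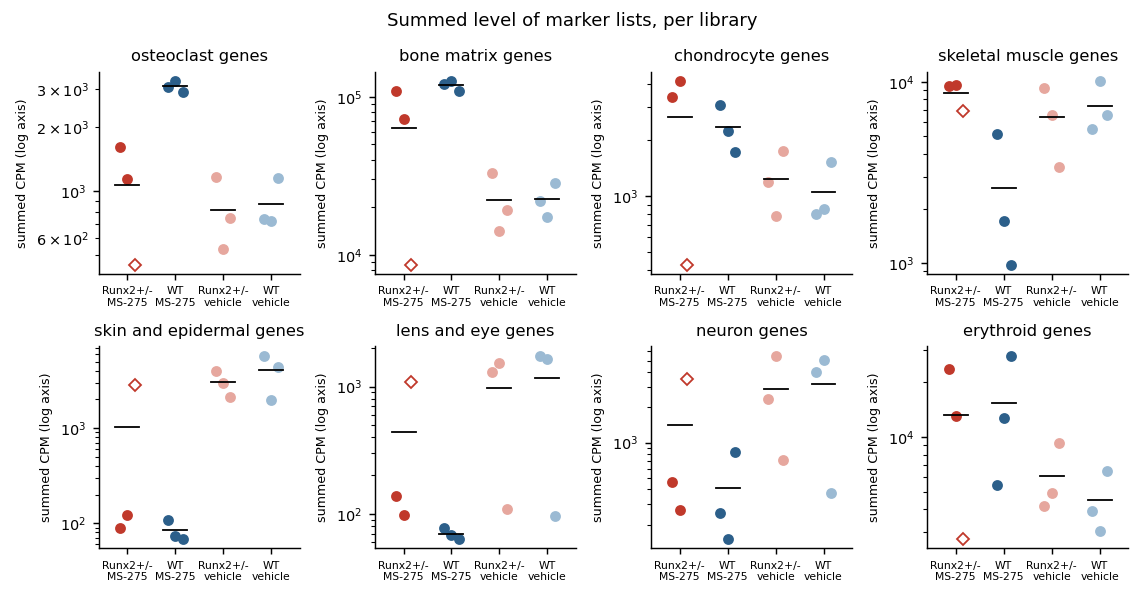
Summed CPM (log axis) of 8 marker lists in each library, with Runx2+/- MS-275, WT MS-275, Runx2+/- vehicle and WT vehicle from left to right. Points are libraries, the open diamond is Runx2+/- MS-275 replicate 3 and bars are arithmetic means. For skin genes replicate 3 had 2855 CPM, beside 90.2 and 122 CPM in the other Runx2+/- MS-275 libraries and 68.3 to 109 CPM in WT MS-275.

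Counts assigned to genes were 15405004 to 17865741 in Runx2+/- MS-275 and 16780972 to 19399760 in WT MS-275. The defining markers of calvarial bone (Col1a1, Ibsp, Bglap, Sp7 and Alpl) had counts in all 12 libraries. Xist, the X-inactivation transcript of females, was high in all 3 Runx2+/- MS-275 libraries (2721, 3056 and 3444 CPM), against 2.34, 1603 and 2555 CPM in WT MS-275. Ddx3y, on the Y chromosome, had 0.186, 0.160 and 0 CPM in Runx2+/- MS-275, against 152, 0.901 and 0.690 CPM in WT MS-275. WT MS-275 replicate 1 was thus the library of the comparison with Ddx3y in quantity and Xist near 0, and sex was not balanced between the groups. The part of sex in the results below was not tested. Mitochondrially encoded genes held 24.2%, 16.2% and 9.48% of counts in Runx2+/- MS-275, against 12.7%, 14.6% and 23.0% in WT MS-275, and these ranges overlapped.

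No gene of 17967 tested passed an adjusted p of 0.05 in the edgeR quasi-likelihood test (0% higher, 0% lower), with or without replicate 3. The smallest adjusted p was 0.265 with all libraries and 0.455 without replicate 3. At an unadjusted p under 0.05 there were 2108 genes higher (11.7%) and 724 lower (4.03%) in Runx2+/- MS-275 with all libraries. Without replicate 3 these counts were 796 higher (4.43%) and 592 lower (3.29%). DESeq2, run as an alternative, called 564 genes higher (3.21%) and 138 lower (0.786%) with all libraries and 95 higher (0.550%) and 47 lower (0.272%) without replicate 3, while limma-voom called 0 in either set. Groups did not overlap for 1641 higher (9.13%) and 1352 lower genes (7.52%) with all libraries. Without replicate 3, where 2 libraries stand against 3, they did not overlap for 2399 higher (13.4%) and 2233 lower genes (12.4%). Every gene that did not overlap with all libraries is among these, since leaving out a library cannot bring overlap. With 3 libraries against 3, the smallest p of an exact permutation test on 1 gene is 0.1, and such tests were left out. The comparisons below therefore describe levels in these libraries, and no gene is called changed by edgeR. Scaling by library size alone moved the median log2 fold change over all genes to 0.40 with all libraries, from a median of 0.05 with TMM scaling, and to 0.01 without replicate 3, beside 0.02. Under that scaling the list medians with all libraries were −1.46 for osteoclast genes and −0.56 for osteoblast transcription factors and signals.

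**Figure D2:**
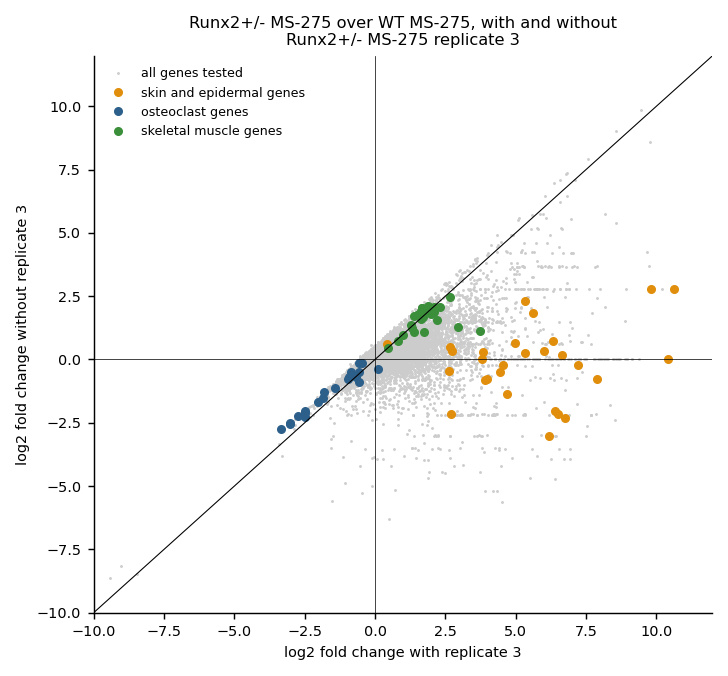
Log2 fold change of Runx2+/- MS-275 over WT MS-275 (edgeR) with replicate 3 (horizontal axis) and without it (vertical axis), 1 point per gene tested, with the line of equality. Osteoclast genes and skeletal muscle genes lie near the line, with medians of −1.61 and 1.67 with replicate 3 and −1.21 and 1.75 without it, while skin genes spread along the horizontal axis, with medians of 5.33 and 0.01.

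Runx2 itself (ENSMUSG00000039153, chromosome 17 from 44495987 to 44814797, minus strand, GENCODE M21 on GRCm38) had 84.0, 93.5 and 34.1 CPM in Runx2+/- MS-275, against 111, 131 and 88.2 CPM in WT MS-275. Replicate 2 of Runx2+/- lay above replicate 3 of WT, so the groups overlapped with and without Runx2+/- replicate 3. The log2 fold change was −0.64 (SE 0.36, 95% interval −1.43 to 0.15, edgeR adjusted p = 0.388) with all libraries and −0.31 (SE 0.27, 95% interval −0.91 to 0.30, adjusted p = 0.892) without replicate 3. These counts cover the whole gene, so they do not separate the mutant from the WT allele, and a halved level lies within the first interval and outside the second. Runx3, which acts in myeloid and cartilage cells, had 4.37, 4.47 and 2.35 CPM in Runx2+/- MS-275, against 9.18, 10.8 and 5.18 CPM in WT MS-275. Its groups did not overlap, with a log2 fold change of −1.18 (SE 0.47) with all libraries and −0.93 (SE 0.49) without replicate 3, and adjusted p of 0.286 and 0.727. Runx1, the blood stem cell factor, overlapped between the groups (log2 fold change −0.21, SE 0.21, and −0.12, SE 0.23, without replicate 3). Cbfb, which encodes the common partner, also overlapped (−0.39, SE 0.32, and −0.08, SE 0.23).

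Genes of osteoclasts lay lower in Runx2+/- MS-275 than in WT MS-275. The list holds 20 genes, all tested. With all libraries 19 of 20 had a negative log2 fold change, the groups did not overlap for 13, all lower (7.52% over all genes), and the median was −1.61, beside 0.05 over all genes tested. Without replicate 3 all 20 were negative, 15 did not overlap (12.4% over all genes), and the median was −1.21, beside 0.02. No gene of the list passed edgeR's test, while DESeq2 called 9 of 20 lower with all libraries and 0 without replicate 3. Over all genes DESeq2 called 0.786% and 0.272% lower. Summed CPM of the list was 1602, 1134 and 451 in Runx2+/- MS-275, against 3080, 3273 and 2921 in WT MS-275. Vehicle libraries had 536 to 1157, so Runx2+/- MS-275 replicate 1 lay above the vehicle range, replicate 2 within it and replicate 3 below it. In this bulk tissue, fewer cells of a type and less RNA per cell cannot be told apart.

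Acp5, the tartrate-resistant acid phosphatase that stains osteoclasts, had 96.2, 38.9 and 10.0 CPM in Runx2+/- MS-275, against 306, 282 and 235 CPM in WT MS-275. Every Runx2+/- library lay below every WT library, with a log2 fold change of −2.51 (SE 0.87) with all libraries and −2.02 (SE 0.83) without replicate 3. Ctsk, the protease that digests bone collagen, had 773, 391 and 47.4 CPM, against 1095, 1512 and 1650 CPM (−1.81, SE 0.83, and −1.29, SE 0.63). Mmp9, a gelatinase of osteoclasts, had 65.5, 47.0 and 9.49 CPM in Runx2+/- MS-275, against 486, 349 and 150 CPM in WT MS-275 (−3.02, SE 0.89, and −2.55, SE 0.88). The WT values of Mmp9 themselves spanned more than 3-fold.

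The genes of fusion and of the osteoclast surface showed the same order of groups. Dcstamp, the fusion protein of osteoclast precursors, had 6.22, 1.44 and 0.479 CPM in Runx2+/- MS-275, against 18.1, 23.7 and 22.9 CPM in WT MS-275. Ocstamp, its partner in fusion, had 3.34, 1.44 and 0.783 CPM, against 12.4, 10.8 and 7.76 CPM. Atp6v0d2, a subunit of the proton pump that also serves fusion, had 29.6, 16.1 and 2.83 CPM, against 85.0, 111 and 123 CPM. Their log2 fold changes were −3.02 (SE 1.05), −2.50 (SE 0.72) and −2.72 (SE 0.86) with all libraries, and −2.50 (SE 1.03), −2.12 (SE 0.75) and −2.22 (SE 0.78) without replicate 3. None of these groups overlapped.

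Among receptors, Oscar, a costimulatory receptor of osteoclasts, had 2.14, 1.44 and 1.00 CPM in Runx2+/- MS-275, against 9.77, 7.45 and 8.37 CPM in WT MS-275 (log2 fold change −2.49, SE 0.71, and −2.26, SE 0.81, without replicate 3). Calcr, the calcitonin receptor, had 3.06, 1.91 and 0.914 CPM, against 8.33, 7.04 and 8.28 CPM (−2.02, SE 0.53, and −1.66, SE 0.51). Siglec15, a sialic acid receptor needed for full osteoclast formation, had 0.279, 0.160 and 0.0435 CPM, against 2.41, 1.39 and 0.690 CPM (−3.33, SE 0.80, and −2.76, SE 0.83). All these receptors are low in whole calvaria, and in Runx2+/- MS-275 Siglec15 lay at or under the level of 3 counts (0.131 to 0.279 CPM in these libraries). Itgb3, the integrin of the resorbing seal, had 20.2, 19.9 and 9.31 CPM, against 56.2, 45.0 and 30.4 CPM (−1.41, SE 0.45, and −1.13, SE 0.46).

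Upstream regulators differed among themselves in size. Tnfrsf11a, which encodes RANK, the receptor of RANKL, had 6.59, 5.82 and 3.79 CPM in Runx2+/- MS-275, against 11.2, 12.0 and 8.19 CPM in WT MS-275 (log2 fold change −0.96, SE 0.43, and −0.75, SE 0.46, without replicate 3). Nfatc1, the master regulator of osteoclast differentiation, had 24.3, 32.7 and 15.3 CPM, against 58.0, 46.4 and 31.9 CPM, and its groups overlapped. Jdp2, an AP-1 family factor needed for osteoclast formation in mice, had 14.2, 15.8 and 5.79 CPM, against 47.3, 45.8 and 34.9 CPM (−1.84, SE 0.51, and −1.51, SE 0.50). No Jdp2 value of Runx2+/- MS-275 came near the WT range.

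**Figure D3:**
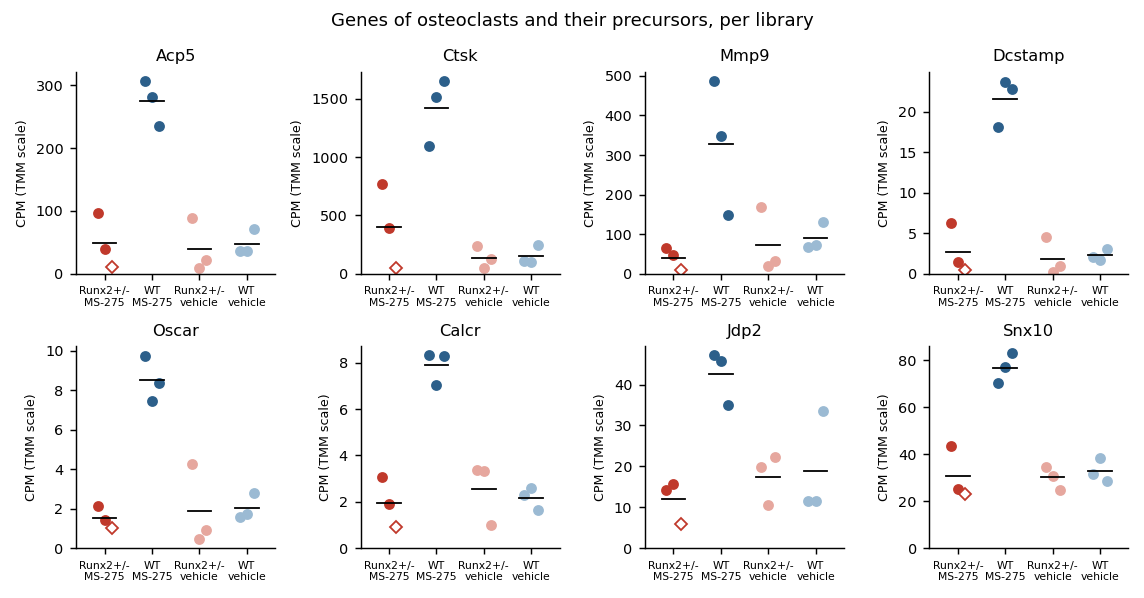
CPM of 8 genes of osteoclasts and their precursors in each library, with Runx2+/- MS-275, WT MS-275, Runx2+/- vehicle and WT vehicle from left to right; points are libraries, the open diamond is Runx2+/- MS-275 replicate 3 and bars are means. In all 8 panels every Runx2+/- MS-275 point lies below every WT MS-275 point, as for Acp5 with 96.2, 38.9 and 10.0 CPM against 306, 282 and 235 CPM.

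Several genes outside this list, named for their small p, are also active in osteoclasts or myeloid cells. Snx10, a sorting nexin whose loss causes osteopetrosis, had 43.3, 25 and 23.1 CPM in Runx2+/- MS-275, against 70.4, 77.0 and 82.8 CPM in WT MS-275. Its log2 fold change was −1.33 (SE 0.25, adjusted p = 0.265) with all libraries and −1.17 (SE 0.25, adjusted p = 0.455) without replicate 3. Ncf4, a subunit of the phagocyte NADPH oxidase, had 1.76, 1.36 and 1.44 CPM, against 6.38, 9.17 and 7.07 CPM (−2.31, SE 0.42, and −2.27, SE 0.49). Gpr137b, a lysosomal membrane protein that regulates osteoclast resorption in mice and fish, had 20.2, 19.1 and 25.5 CPM, against 48.0, 46.9 and 36.2 CPM (−1.01, SE 0.19, and −1.15, SE 0.20). Replicate 3 was the highest of the Runx2+/- MS-275 libraries for Gpr137b and the lowest for Snx10. In vehicle libraries Snx10 had 24.9 to 38.5 CPM, Ncf4 1.38 to 4.25 CPM and Gpr137b 21.9 to 30.7 CPM. These levels lay below every WT MS-275 library.

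General myeloid genes lay lower as a list with all libraries, by less than osteoclast genes, but not by their median without replicate 3. Of 20 macrophage and myeloid genes, 19 had a negative log2 fold change with all libraries (median −0.40) and 10 without replicate 3 (median 0.02). The groups did not overlap for 4 lower and 0 higher members with all libraries (7.52% and 9.13% over all genes) and for 4 lower and 3 higher members without replicate 3 (12.4% and 13.4%). Spi1, the factor PU.1 that osteoclast precursors need, had 5.39, 5.50 and 1.74 CPM in Runx2+/- MS-275, against 19.3, 20.1 and 12.4 CPM in WT MS-275 (log2 fold change −2.04, SE 0.63, and −1.66, SE 0.64, without replicate 3). Cd68, a lysosomal protein of macrophages and osteoclasts, had 19.7, 20.5 and 9.53 CPM, against 45.7, 43.6 and 26.6 CPM (−1.22, SE 0.43, and −0.94, SE 0.43). Csf1r, the receptor for the macrophage growth factor M-CSF and a member of both lists, had 126, 132 and 31.1 CPM, against 178, 163 and 85.8 CPM, and its groups overlapped. Mrc1, the mannose receptor of tissue macrophages, had 588, 420 and 50.4 CPM, against 340, 409 and 388 CPM (−0.10, SE 0.70, and 0.41, SE 0.45). Without replicate 3, Mrc1 was thus above its WT range and Spi1 below it.

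Osteoblast transcription factors and signals lay lower as a group too. Of 20 genes tested, 19 had a negative log2 fold change with all libraries and 17 without replicate 3, with medians of −0.80 and −0.68. The groups did not overlap for 12 genes, all lower, in each set. Over all genes, 7.52% with all libraries and 12.4% without replicate 3 did so. DESeq2 called 2 of the list lower with all libraries (Dlx5 and Dlx6) and 1 without replicate 3 (Dlx5), beside 0.786% and 0.272% over all genes. Runx2 is a member of this list. Summed CPM of the list was 1508, 1426 and 760 in Runx2+/- MS-275, against 1974, 2109 and 1684 in WT MS-275. Vehicle libraries had 810 to 1232, so Runx2+/- MS-275 replicates 1 and 2 lay above the vehicle range and replicate 3 below it.

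Sp7 (osterix), the factor that follows Runx2 in osteoblast commitment, had 100, 80.0 and 20.2 CPM in Runx2+/- MS-275, against 202, 252 and 154 CPM in WT MS-275. Its log2 fold change was −1.61 (SE 0.57, adjusted p = 0.265) with all libraries and −1.17 (SE 0.46, adjusted p = 0.556) without replicate 3. Dlx5, a homeobox factor upstream of Sp7, had 12.2, 13.8 and 9.31 CPM, against 27.7, 27.2 and 19.4 CPM (−1.08, SE 0.23, and −0.93, SE 0.23). Dlx6, its neighbour on chromosome 6, had 14.5, 12.4 and 9.27 CPM, against 21.3, 27.2 and 19.8 CPM (−0.92, SE 0.22, and −0.76, SE 0.21). For Dlx5 and Dlx6 replicate 3 lay close to the other Runx2+/- libraries, and the spread in each group was small. No source used here gives the strand setting of the counting, so reads of Dlx6 and its antisense transcript may not be separated.

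Pth1r, the parathyroid hormone receptor, had 70.7, 69.4 and 27.8 CPM in Runx2+/- MS-275, against 162, 158 and 110 CPM in WT MS-275 (log2 fold change −1.36, SE 0.48, and −1.03, SE 0.47, without replicate 3). Atf4, a factor of late osteoblasts and of the amino acid response, had 179, 120 and 98.5 CPM, against 202, 240 and 238 CPM (−0.78, SE 0.27, and −0.60, SE 0.27).

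The osteoblast signals to osteoclasts differed from each other. Tnfsf11, which encodes RANKL, had 4.46, 4.15 and 0.783 CPM in Runx2+/- MS-275, against 9.70, 14.8 and 10.9 CPM in WT MS-275. The groups did not overlap, and the log2 fold change was −1.93 (SE 0.66, adjusted p = 0.265) with all libraries and −1.45 (SE 0.55, adjusted p = 0.546) without replicate 3. Tnfrsf11b, which encodes osteoprotegerin, the decoy receptor that blocks RANKL, had 61.4, 25.3 and 4.09 CPM, against 27.5, 34.1 and 43.7 CPM. Its Runx2+/- libraries lay on both sides of the WT range, with a log2 fold change of −0.22 (SE 0.74) with all libraries and 0.30 (SE 0.52) without replicate 3.

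**Figure D4:**
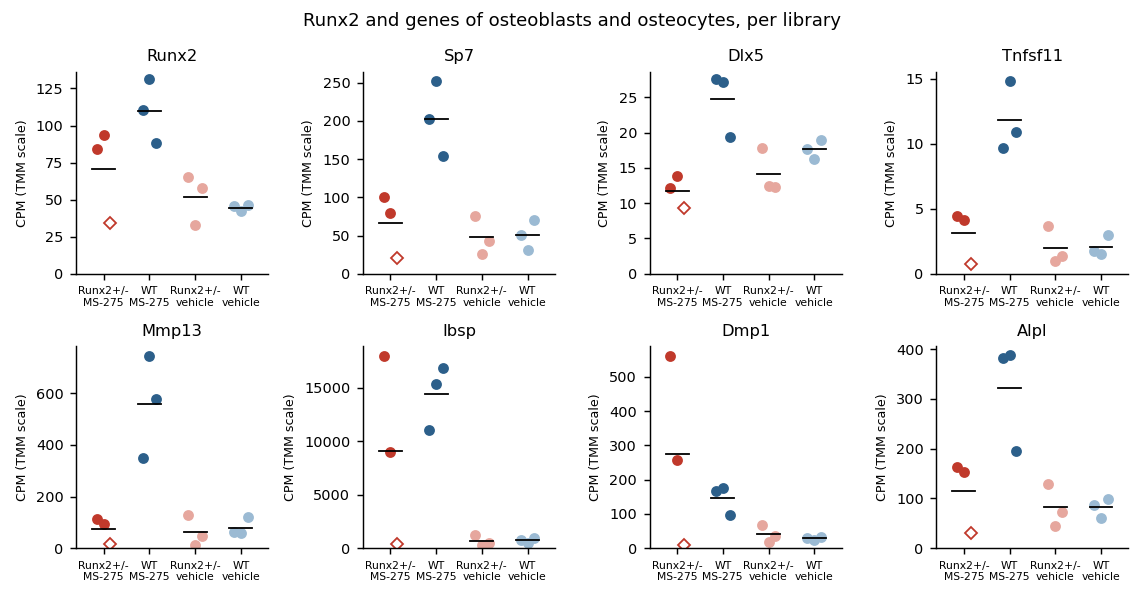
CPM of Runx2 and 7 genes of osteoblasts and osteocytes in each library, with Runx2+/- MS-275, WT MS-275, Runx2+/- vehicle and WT vehicle from left to right; points are libraries, the open diamond is Runx2+/- MS-275 replicate 3 and bars are means. Every Runx2+/- MS-275 point lies below every WT MS-275 point for Sp7, Dlx5, Tnfsf11, Mmp13 and Alpl, while the points overlap for Runx2, Ibsp and Dmp1.

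Genes of the suture and of osteoprogenitors lay mostly lower. Of 25 tested, 21 were negative with all libraries and 17 without replicate 3, with median log2 fold changes of −0.45 and −0.20. Members that did not overlap were 8 lower ones with all libraries (7.52% over all genes), and 9 lower and 3 higher ones without replicate 3 (12.4% and 13.4%), so the higher count lay near the share over all genes. Without replicate 3 the median was −0.04 when replicate 1 was also left out and −0.31 when replicate 2 was. Msx1, a homeobox factor of cranial mesenchyme, had 21.2, 18.7 and 10.1 CPM in Runx2+/- MS-275, against 40.0, 37.0 and 31.4 CPM in WT MS-275 (−1.12, SE 0.33, and −0.86, SE 0.31, without replicate 3). En1, a homeobox factor of the frontal bone and suture, had 3.44, 3.83 and 0.914 CPM, against 8.46, 9.74 and 6.12 CPM (−1.58, SE 0.58, and −1.16, SE 0.50). Efnb1, the ephrin whose loss causes craniofrontonasal syndrome, had 45.2, 55.7 and 24.5 CPM, against 84.7, 77.9 and 60.9 CPM (−0.83, SE 0.27, and −0.56, SE 0.20). For all these genes every Runx2+/- MS-275 library lay below every WT MS-275 library.

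Bone matrix genes split. Of 28 tested, 27 were negative with all libraries (median log2 fold change −0.76) and 22 without replicate 3 (median −0.28). The groups did not overlap for 8 lower members in each set and for 2 higher members without replicate 3. Over all genes tested, 7.52% with all libraries and 12.4% without replicate 3 did not overlap and lay lower. The share that lay higher without replicate 3 was 13.4%. Leaving out 1 further library moved the median without replicate 3 between −0.54 and −0.10.

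Col1a2, a chain of type I collagen, had 18354, 14368 and 1808 CPM in Runx2+/- MS-275, against 35091, 30873 and 20569 CPM in WT MS-275 (log2 fold change −1.33, SE 0.75, and −0.82, SE 0.50, without replicate 3). Col1a1, its partner chain, had 13198, 7331 and 1105 CPM, against 25008, 18778 and 8466 CPM, and overlapped. Sparc, the collagen-binding osteonectin, had 7505, 6118 and 927 CPM, against 13174, 13689 and 8619 CPM (−1.29, SE 0.72, and −0.80, SE 0.53). Smpd3, a sphingomyelinase whose loss impairs mineralization in mice, had 89.2, 73.0 and 38.6 CPM, against 213, 208 and 128 CPM (−1.45, SE 0.40, and −1.18, SE 0.40).

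The late matrix genes did not separate. Bglap, whose promoter is printed above, had 202, 79.3 and 2.09 CPM in Runx2+/- MS-275, against 147, 178 and 188 CPM in WT MS-275. Reads of Bglap may be split with the near-identical copy Bglap2. Ibsp, bone sialoprotein, had 17975, 8952 and 375 CPM, against 11018, 15365 and 16858 CPM. Spp1, osteopontin, had 19020, 8677 and 134 CPM, against 8799, 14808 and 18153 CPM. In each of these genes Runx2+/- replicate 1 was the highest of the 6 libraries and replicate 3 the lowest. Without replicate 3 the log2 fold changes were −0.28 (SE 0.47), −0.10 (SE 0.60) and −0.01 (SE 0.64), with 95% intervals of −1.34 to 0.78, −1.44 to 1.25 and −1.44 to 1.42.

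Among 18 mineralization and early osteocyte genes tested, of 20 listed, the median log2 fold change was −0.26 with all libraries and −0.03 without replicate 3. Alpl, the alkaline phosphatase that releases phosphate for mineral, had 163, 152 and 31.2 CPM in Runx2+/- MS-275, against 382, 387 and 196 CPM in WT MS-275 (−1.48, SE 0.58, and −1.03, SE 0.44, without replicate 3). Without replicate 3, 10 members were negative and 7 positive, and 3 lower and 3 higher members did not overlap (12.4% and 13.4% over all genes). The higher members included Dmp1 and Mepe. Dmp1, a matrix protein of young osteocytes, had 561, 256 and 10.7 CPM, against 167, 176 and 95.9 CPM, and without replicate 3 its log2 fold change was 1.48 (SE 0.50, adjusted p = 0.490). Mepe, a related osteocyte phosphoprotein, had 48.1, 11.9 and 0.131 CPM, against 4.49, 7.53 and 10.5 CPM (2.00, SE 0.67, without replicate 3, adjusted p = 0.485). With all libraries both overlapped, at 0.92 (SE 0.92) and 1.41 (SE 1.19), and limma-voom gave −0.05 and −1.30. In both genes replicate 3 was the lowest of the 6 libraries.

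Mmp13 had 113, 92.2 and 14.7 CPM in Runx2+/- MS-275, against 350, 745 and 577 CPM in WT MS-275. The highest Runx2+/- library lay far below the lowest WT library. Its log2 fold change was −2.92 (SE 0.87, edgeR adjusted p = 0.265) with all libraries and −2.44 (SE 0.81, edgeR adjusted p = 0.485) without replicate 3. The alternatives gave adjusted p of 0.0137 to 0.648 with all libraries and 0.0613 to 1 without replicate 3, the lowest from DESeq2 in each. In vehicle libraries Mmp13 had 129, 13.0 and 47.4 CPM in Runx2+/- and 61.4, 57.1 and 119 CPM in WT, and the vehicle groups overlapped.

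Most immediate early genes, a list that holds the Fos and Jun families of AP-1 beside other factors, had lower levels in Runx2+/- MS-275. Of 23 immediate early genes tested, 17 were negative with all libraries and 18 without replicate 3, with a median log2 fold change of −0.43 in each. The groups did not overlap for 8 lower members and 1 higher member in each set, where the shares over all genes were 7.52% lower and 9.13% higher with all libraries and 12.4% and 13.4% without replicate 3. Leaving out 1 further library moved the median without replicate 3 between −0.54 and −0.25, with −0.25 reached without WT MS-275 replicate 1. Fosl2, a Fos family protein, had 29.4, 29.0 and 33.8 CPM in Runx2+/- MS-275, against 72.5, 59.1 and 46.8 CPM in WT MS-275 (−0.95, SE 0.24, and −1.03, SE 0.27, without replicate 3). Jun had 19.9, 22.1 and 16.0 CPM, against 50.7, 34.5 and 25.8 CPM (−0.94, SE 0.29, and −0.82, SE 0.32). Junb had 3.62, 2.87 and 2.35 CPM, against 8.72, 7.29 and 5.69 CPM (−1.30, SE 0.35, and −1.16, SE 0.38). Replicate 3 lay close to the other Runx2+/- libraries in each of them. Egr3, a zinc finger factor, was the higher member, with 1.58, 1.60 and 2.48 CPM, against 0.846, 0.982 and 0.776 CPM.

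BMP and TGF-beta pathway genes lay on both sides. Of 34 tested, 25 were negative with all libraries and 23 without replicate 3, with median log2 fold changes of −0.35 and −0.18. The groups did not overlap for 7 lower and 2 higher members with all libraries (7.52% and 9.13% over all genes) and for 8 lower and 6 higher without replicate 3 (12.4% and 13.4%). Without replicate 3 the median was −0.02 when Runx2+/- replicate 1 was also left out and −0.036 when WT replicate 1 was. Bmpr1b, a BMP receptor of cartilage and other tissues, had 7.71, 13.7 and 17.8 CPM in Runx2+/- MS-275, against 5.08, 3.36 and 3.54 CPM in WT MS-275 (log2 fold change 1.71, SE 0.31, and 1.42, SE 0.29, without replicate 3). Nog, the secreted BMP antagonist noggin, had 4.18, 5.42 and 1.78 CPM, against 10.1, 8.84 and 9.75 CPM (−1.34, SE 0.37, and −0.99, SE 0.26). Neither passed edgeR's test, at adjusted p of 0.265 each with all libraries and 0.455 and 0.465 without replicate 3. Of 27 FGF and hedgehog pathway genes the median was −0.02 in each set. Fgfr3, the FGF receptor that restrains bone growth, had 44.2, 43.8 and 38.7 CPM, against 72.5, 70.8 and 60.3 CPM (−0.68, SE 0.20, and −0.63, SE 0.22).

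Histone deacetylase genes as a list differed little in level. The list is not limited to the class I genes that MS-275 inhibits, and class I was not summarised apart. For its 11 genes the median log2 fold change was 0.06 in each set. The groups did not overlap for 0 genes with all libraries (7.52% lower and 9.13% higher over all genes). They did not overlap for 1 lower gene without replicate 3 (12.4%). Of 24 genes reported to respond to histone deacetylase inhibitors, 8 lower and 1 higher did not overlap with all libraries (7.52% and 9.13% over all genes), and 8 lower and 2 higher without replicate 3 (12.4% and 13.4%), with medians of −0.36 and −0.19. The second median was −0.038 when WT MS-275 replicate 3 was also left out, and the first was −0.12 with library-size scaling. Of 20 hypoxia and glycolysis genes, 2 higher members did not overlap with all libraries (9.13% over all genes) and 10 without replicate 3 (13.4%), beside 1 lower member in each set, with medians of 0.34 and 0.52. These medians were −0.04 and 0.16 when Runx2+/- replicate 2 was left out. Gapdh, a glycolytic enzyme, had 1337, 1276 and 630 CPM in Runx2+/- MS-275, against 855, 772 and 739 CPM in WT MS-275. Its log2 fold change was 0.45 (SE 0.30) with all libraries and 0.73 (SE 0.20, edgeR adjusted p = 0.465) without replicate 3, where the alternatives gave adjusted p of 0.000219 to 1. Replicate 3 was the lowest of the 6 libraries for Gapdh.

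Markers of tissues beside bone differed as well. Of 27 skeletal muscle genes tested, of 28 listed, all had a positive log2 fold change in each set, with a median of 1.67 with all libraries and 1.75 without replicate 3. Higher members that did not overlap were 14 with all libraries and 21 without replicate 3 (9.13% and 13.4% over all genes). Summed CPM of the list was 9457, 9583 and 6949 in Runx2+/- MS-275, against 5140, 1718 and 982 in WT MS-275, beside 3396 to 10085 in vehicle libraries. The Runx2+/- libraries thus lay within the vehicle range and 2 WT libraries below it. Without WT MS-275 replicate 1, the library with Y-linked expression and the most muscle RNA of its group, the median was 2.90 with all other libraries and 2.70 without replicate 3 of Runx2+/-.

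Mylpf, a myosin light chain of fast fibres, had 2592, 2243 and 723 CPM in Runx2+/- MS-275, against 1078, 391 and 278 CPM in WT MS-275 (log2 fold change 1.67, SE 0.61, and 2.05, SE 0.55, without replicate 3). Tnnt3, fast troponin T, had 928, 870 and 470 CPM, against 413, 126 and 76.3 CPM (1.88, SE 0.60, and 2.13, SE 0.62). Ttn, the giant sarcomere protein titin, had 537, 498 and 769 CPM, against 221, 93.2 and 51.8 CPM (2.3, SE 0.63, and 2.08, SE 0.67). Pax7, the factor of muscle stem cells, had 1.67, 2.23 and 5.14 CPM, against 2.02, 0.491 and 0.173 CPM, and overlapped. The part of muscle RNA in the results above was not tested.

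Cartilage genes were higher in replicates 1 and 2. Of 20 tested, 16 were positive with all libraries and 18 without replicate 3, with medians of 0.48 and 0.91. Higher members that did not overlap were 2 with all libraries, near the 9.13% over all genes, and 12 without replicate 3, beside 13.4%. The median with all libraries was 0.038 when replicate 2 was left out and 0.19 when replicate 1 was. Hapln1, the link protein of cartilage, had 512, 441 and 18.6 CPM in Runx2+/- MS-275, against 232, 261 and 265 CPM in WT MS-275. Matn1, matrilin 1, had 187, 213 and 3.70 CPM, against 112, 61.4 and 51.8 CPM. Without replicate 3 their log2 fold changes were 0.92 (SE 0.27) and 1.41 (SE 0.46), and with it 0.36 (SE 0.78) and 0.84 (SE 0.95), where limma-voom gave −0.37 and −0.43. In both genes replicate 3 was the lowest of the 6 libraries. Prg4, lubricin of joint surfaces, did not follow replicate 3, with 1.95, 1.75 and 2.18 CPM, against 1.11, 0.491 and 0.345 CPM (1.57, SE 0.52, and 1.48, SE 0.58, without replicate 3).

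The skin, lens and neuron lists were decided by replicate 3. Their median log2 fold changes were 5.33, 4.87 and 1.95 with all libraries and 0.01, −0.33 and −0.37 without it. Krt5, a basal keratin of epidermis, had 0.186, 0.239 and 270 CPM in Runx2+/- MS-275, against 0.521, 2.21 and 0.259 CPM in WT MS-275. Its log2 fold change was 6.51 (SE 2.19) with replicate 3 and −2.16 (SE 1.16) without it, and Krt14, its partner keratin, gave 4.70 (SE 1.65) and −1.36 (SE 0.59). Cryaa, a lens crystallin, had 0.0929, 0.0798 and 327 CPM, against 0.195, 0.982 and 0.604 CPM. For Krt5 and Cryaa the high values sat in replicate 3 alone, and replicates 1 and 2 were under 1 CPM.

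Some genes of epithelia and sense organs were high in replicate 2 as well as in replicate 3. Epcam, a cell adhesion protein of epithelia, had 7.34, 39.2 and 32.0 CPM in Runx2+/- MS-275, against 4.04, 1.47 and 1.64 CPM in WT MS-275 (log2 fold change 3.44, SE 0.57, and 3.26, SE 0.61, without replicate 3). In vehicle libraries Epcam had 48.8, 44.3 and 45.4 CPM in Runx2+/- and 38.8, 35.5 and 38.3 CPM in WT, so replicates 2 and 3 lay near the vehicle level and replicate 1 near WT MS-275. Lrp2, the endocytic receptor megalin of epithelia, had 0.557, 12.4 and 8.79 CPM, against 0.456, 0.409 and 0.518 CPM. Esrp1, an epithelial splicing regulator, had 0.0929, 5.82 and 37.9 CPM, against 0.391, 0.246 and 0.259 CPM. Otof, otoferlin of inner ear hair cells, had 0.279, 15.2 and 11.4 CPM, against 0.977, 0.573 and 0.431 CPM. Pou4f3, a transcription factor of hair cells, had 0.371, 3.03 and 1.35 CPM, against 0, 0 and 0.0863 CPM. In all 5 genes replicate 1 was the lowest of the Runx2+/- libraries, and for Esrp1 and Otof it lay below every WT library. Lrp2, Esrp1 and Otof were named after their values were seen.

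Without Runx2+/- MS-275 replicate 1, edgeR called 22 genes higher and 1 lower, Snx10, where it called 0 with all libraries. Epcam had an adjusted p of 0.0133 there (0.265 with all libraries, 2.72e-07 to 0.648 over the alternatives), and Lrp2 one of 0.000376 (0.265 with all libraries, 0.000148 to 0.648 over the alternatives). Sema3e, a guidance signal, had 6.13, 20.7 and 14.8 CPM in Runx2+/- MS-275, against 3.84, 2.70 and 3.45 CPM in WT MS-275, and an adjusted p of 0.0286 there (0.265 with all libraries, 0.000278 to 0.648 over the alternatives). Isl1, a transcription factor of neurons and other lineages, was higher in every Runx2+/- library, with 8.82, 5.11 and 33.4 CPM, against 0.521, 0.327 and 0.776 CPM (log2 fold change 4.86, SE 0.84, and 3.67, SE 0.63, without replicate 3). In vehicle libraries Isl1 had 7.96 to 34.3 CPM and Sema3e 12.3 to 20.2 CPM, each above every WT MS-275 library.

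The other genes of smallest p were of mixed kinds. None of the 8 named here passed edgeR's test with or without replicate 3, DESeq2 called all 8 in both sets, and edgeR called Rasd2 when replicate 1 was left out. Since the 8 were named for small p in these data, such calls add no separate support. Among the higher ones, Tecrl, an enoyl reductase-like protein of heart and muscle, had 15.4, 16.2 and 7.53 CPM in Runx2+/- MS-275, against 3.78, 2.29 and 2.07 CPM in WT MS-275 (log2 fold change 2.26, SE 0.41, and 2.53, SE 0.37, without replicate 3). Abca8b, a lipid transporter, had 16.3, 18.9 and 21.1 CPM, against 9.70, 8.19 and 6.73 CPM (1.19, SE 0.20, and 1.10, SE 0.20). Chodl, a membrane lectin, had 65.4, 55.3 and 36.5 CPM, against 26.5, 16.7 and 26.5 CPM (1.17, SE 0.27, and 1.38, SE 0.25). Rasd2, a small GTPase, had 0.464, 0.798 and 1.09 CPM, against counts of 0, 0 and 0 in WT MS-275, and its mean level was at least 3.36-fold higher with all libraries and at least 2.71-fold higher without replicate 3. These bounds take 3 counts per library as the floor (0.233 CPM on average in WT MS-275), and they cover counting error only.

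Among the lower ones, Chac1, a glutathione-degrading enzyme induced by the amino acid response, had 1.21, 0.957 and 0.566 CPM in Runx2+/- MS-275, against 4.23, 7.94 and 7.25 CPM in WT MS-275 (log2 fold change −2.84, SE 0.45, and −2.57, SE 0.47, without replicate 3). Atf5, a stress-response factor related to Atf4, had 14.7, 16.6 and 21.4 CPM, against 34.7, 29.8 and 27.5 CPM (−0.80, SE 0.19, and −0.97, SE 0.18). Mgll, the lipase of monoacylglycerols, had 12.9, 16.0 and 12.8 CPM, against 28.6, 29.5 and 23.3 CPM (−0.96, SE 0.18, and −0.91, SE 0.19). Rab35, a GTPase of endosomal recycling, had the smallest absolute change of these, with 26.1, 28.5 and 28.0 CPM, against 44.6, 41.7 and 38.7 CPM (−0.60, SE 0.13, and −0.61, SE 0.13). In these genes replicate 3 lay with or near replicates 1 and 2. In vehicle libraries Chac1 had 0.740 to 2.27 CPM, below every WT MS-275 library. Mgll had 18.5 to 24.8 CPM there, above every Runx2+/- MS-275 library and overlapping WT MS-275. Rab35 had 45.6 to 53.1 CPM in vehicle libraries, above every Runx2+/- MS-275 and every WT MS-275 library.

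**Figure D5:**
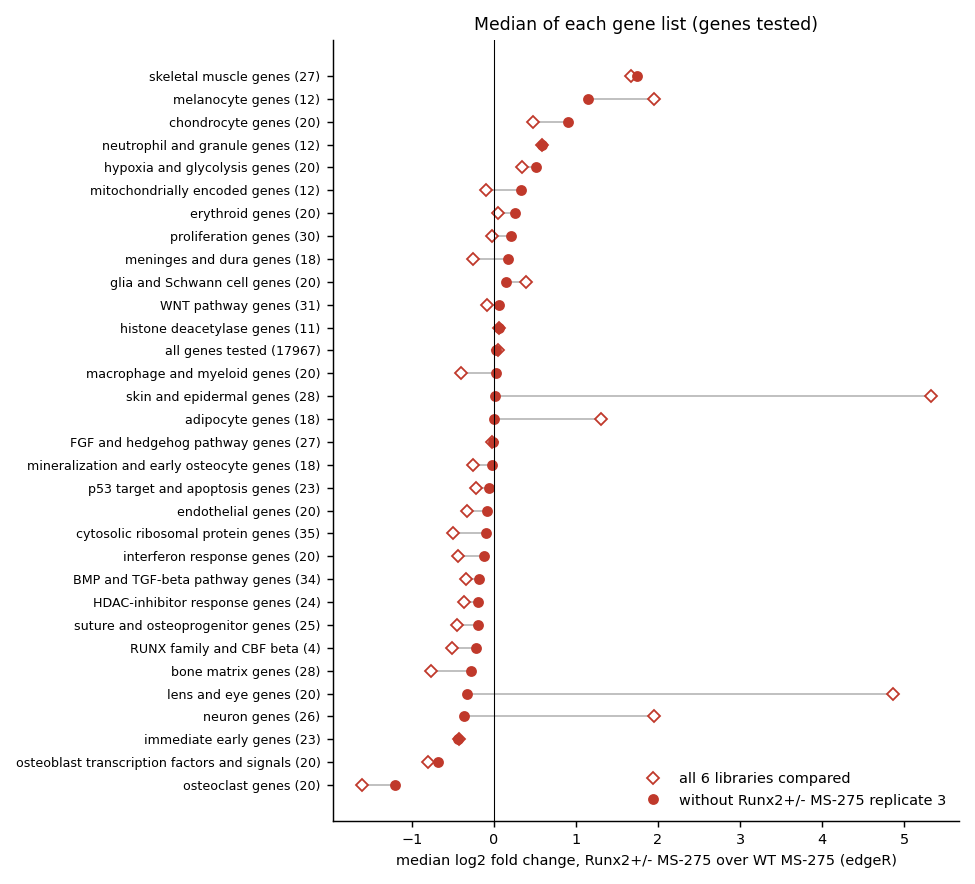
Median log2 fold change of Runx2+/- MS-275 over WT MS-275 (edgeR) for each gene list, with the number of genes tested; open diamonds use all libraries and filled circles leave out Runx2+/- MS-275 replicate 3. Sex-linked genes are not plotted. Of the lists plotted, osteoclast genes have the lowest median in both sets (−1.61 and −1.21), and skin genes move most between them (5.33 and 0.01).

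Vehicle medians were nearer 0 than MS-275 medians for some lists and farther from it for others. The median log2 fold change between Runx2+/- vehicle and WT vehicle was −0.11 for osteoclast genes, −0.07 for osteoblast transcription factors and signals and −0.30 for skeletal muscle genes, all nearer 0 than under MS-275. It was −1.36 for adipocyte genes, beside 1.30 under MS-275 with all libraries and 0.0049 without replicate 3. For meninges and dura genes it was 0.66, beside −0.25 and 0.16, and for erythroid genes 0.38, beside 0.04 and 0.25. The test of the difference between treatments, the interaction, called 0 of 17967 genes by edgeR with or without replicate 3 (0% higher, 0% lower), with a smallest adjusted p of 0.873 and 1. At an unadjusted p under 0.05 it held 817 genes higher (4.55%) and 136 lower (0.757%) with all libraries and 361 higher (2.01%) and 138 lower (0.768%) without replicate 3. DESeq2 called 38 genes higher with all libraries and 3 higher without replicate 3 (Klhl13, Tecrl and Gapdh), and limma-voom called 0. Most of the 38 had 0 CPM in every MS-275 library but Runx2+/- replicate 3, such as Casp14 and Plin1 (28.3 and 10.3 CPM there). Others, such as Epcam and Isl1, were not limited to replicate 3. For Acp5 the interaction was −2.24 (SE 1.18) with all libraries and −1.76 (SE 1.06) without replicate 3, and for Sp7 it was −1.51 (SE 0.79) and −1.08 (SE 0.60). By edgeR no gene's genotype difference was thus shown to differ between treatments. In vehicle libraries Acp5 had 88.0, 9.04 and 21.6 CPM in Runx2+/- and 35.9, 35.6 and 70.8 CPM in WT, all below the WT MS-275 libraries.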

How the data were processed

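The authors deposited 1 table of read counts per library, with 39179 Ensembl gene entries and 5 summary entries each, which were set aside before any total or test. Per the submitters' processing notes, Trimmomatic, Bowtie2, SAMtools and HTSeq were used. The notes name the build GRCh38.p7, a human build, although the gene identifiers are those of mouse. Tool versions and the strand setting of the counting are not given in the sources used here. Per the labels' protocols, libraries were stranded total RNA libraries. Symbols matched 37693 identifiers, and the 1486 without one held 0.184% of counts.

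From these counts, edgeR 4.0.16 in R 4.3.3 kept 17967 genes (filterByExpr on the 4 groups), scaled libraries by TMM and fitted 4 group means. Quasi-likelihood tests were two-sided, with Benjamini-Hochberg adjustment over all genes kept and a threshold of 0.05. The fit was made with all 12 libraries and with 11, leaving out Runx2+/- MS-275 replicate 3. The method was tested on simulated data. Levels are CPM, read counts scaled to a common library size, on the 12-library TMM scale, where 3 counts equal 0.131 to 0.279 CPM in Runx2+/- MS-275 and 0.195 to 0.259 CPM in WT MS-275. Values in brackets after levels are log2 fold changes of Runx2+/- MS-275 over WT MS-275 with their SE, with all libraries first. Groups that do not overlap are those in which every library of one lies beyond every library of the other.

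Alternatives were DESeq2 1.42.0, limma-voom (limma 3.58.1), scaling by library size, no filter on low counts, the MS-275 libraries alone, the replicate number as a block, and leaving out each library in turn. Named genes were those of smallest p (up to 10 in each direction and up to 4 per list, in each fit), all RUNX family, histone deacetylase and sex-linked genes, and a set of marker genes, of which 1 is not reported here. Of those named outside that rule, Tnfrsf11a, Nfatc1, Csf1r, Ocstamp, Mrc1, Pth1r, Atp6v0d2, Dcstamp, Itgb3, Mmp13, Lrp2, Esrp1 and Otof were chosen after their values were seen. The members, the 32 gene lists and the rule were chosen with earlier results of these data known. Gene positions are from GENCODE M21 (GRCm38), and promoters from RefSeq (GRCm38.p6).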

Additional observations from a re-analysis of the deposited data

Results flagged for a closer look

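Reads that aligned uniquely but fell in no annotated gene were 22.2% of uniquely aligned reads in Runx2+/- MS-275 replicate 3, a measurement outside the gene counts. The other Runx2+/- MS-275 libraries had 6.36% and 8.65%, against 5.21% to 6.28% in WT MS-275. Vehicle libraries had 10.5% to 16.8%, so the value of replicate 3 lay above all other libraries of the series. Its part in the results was not tested.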

How the results depend on the processing

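By edgeR, 0 genes were called for the genotype difference under MS-275 with or without Runx2+/- MS-275 replicate 3, also with library-size scaling, without a filter and with the MS-275 libraries alone, and limma-voom called 0 in each set. DESeq2 called 564 higher and 138 lower genes with all libraries and 95 higher and 47 lower without replicate 3, and for the interaction 38 and 3 higher. The cause of the gap between the tools was not tested. Leaving out 1 library gave 0 to 22 genes higher and 0 to 1 lower with all libraries, and 0 to 5 higher without replicate 3, the calls coming from leaving out Runx2+/- MS-275 replicate 1. Without both replicates 1 and 3, 1 Runx2+/- MS-275 library is left, assumed to vary like the other groups. For the interaction the range was 0 to 1 in each. Same-numbered libraries of the groups correlated at −0.203, 0.282 and 0.171 in their deviations from the group means, and other pairs at −0.335 to 0.277. With so few libraries these values cannot decide whether the numbers pair libraries. With the replicate number as a block (replicate block) 0 genes were called in each set, and the smallest adjusted p was 0.463 with all libraries and 0.204 without replicate 3.

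These checks covered 101 genes, not all of them named above. With all libraries, 100 kept their direction under library-size scaling and 97 under limma-voom. DESeq2 put 52 past the threshold with all libraries and 31 without replicate 3. Over all genes it called 3.21% higher and 0.786% lower with all libraries, and 0.550% and 0.272% without replicate 3. Many of the 101 genes were chosen for small p or after their values were seen, so high counts among them were built in. Direction turned for Runx1 with library-size scaling (0.088), and for Dmp1 (−0.051), Mepe (−1.30), Hapln1 (−0.37) and Matn1 (−0.43) by limma-voom, all with all libraries. It turned for Spp1 with the replicate block without replicate 3 (0.14). The cause was not tested. Leaving out 1 library with all libraries gave −0.69 to 0.41 for Mrc1, −1.26 to 0.30 for Tnfrsf11b, −0.14 to 1.48 for Dmp1, −0.33 to 2.00 for Mepe, −0.14 to 0.92 for Hapln1, −2.16 to 7.80 for Krt5, −1.36 to 5.28 for Krt14 and −2.64 to 8.13 for Cryaa. Without replicate 3 it gave −0.30 to 0.022 for Runx1, −0.36 to 0.15 for Cbfb, −0.40 to 0.054 for Csf1r, −0.47 to 0.81 for Tnfrsf11b, −1.11 to 0.24 for Bglap, −0.69 to 0.32 for Ibsp, −0.68 to 0.45 for Spp1, −0.28 to 2.67 for Dsp, −1.64 to 4.23 for Esrp1 and −1.25 to 4.49 for Otof.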

Other observations

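Of 12 melanocyte genes tested, 10 had a positive log2 fold change with all libraries and 9 without replicate 3, with medians of 1.95 and 1.14, and 2 higher members did not overlap in each set (9.13% and 13.4% over all genes). The median without replicate 3 was 0.18 when replicate 2 was also left out. Tyrp1, a melanin synthesis enzyme, had 6.13, 4.39 and 9.71 CPM in Runx2+/- MS-275, against 1.5, 0.164 and 0.604 CPM in WT MS-275. Its log2 fold change was 3.12 (SE 0.74) with all libraries and 2.75 (SE 0.76) without replicate 3. Dct, another enzyme of melanin synthesis, had 0.929, 7.82 and 22.9 CPM, against 1.37, 0.164 and 0.0863 CPM, and its groups overlapped. In vehicle libraries Dct had 22.2, 21.4 and 26.4 CPM in Runx2+/- and 25.6, 22.5 and 36.1 CPM in WT.

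Fgf1, a fibroblast growth factor, had 32.9, 7.66 and 6.14 CPM in Runx2+/- MS-275, against 6.25, 3.68 and 4.49 CPM in WT MS-275, with the high value in replicate 1. Klhl13, a ubiquitin ligase adaptor on the X chromosome, had 321, 280 and 107 CPM, against 156, 157 and 182 CPM, and replicate 3 lay below WT where replicates 1 and 2 lay above it. Erythroid genes summed to 23584, 13127 and 2750 CPM in Runx2+/- MS-275, against 5481, 12684 and 28062 CPM in WT MS-275, and these ranges overlapped.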
